A study of Mus musculus with 11 samples.

Results

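The 9 mouse genes described here belong to families known as inhibitors of inflammatory signalling and of cytokine mRNA stability. They were taken by gene symbol from the 36529 genes listed in the count files, and all 9 were found. The ubiquitin group has 5 genes, Tnfaip3 (A20), Tnip1, Tnip2 and Tnip3 (ABIN1, ABIN2 and ABIN3) and Cyld. The mRNA decay group has 4 genes, Zc3h12a (Regnase-1), Zfp36 (tristetraprolin), Zfp36l1 and Zfp36l2. BV2 cells, an immortalized line of mouse microglia, came from the C57BL/6 strain. In the nApoE4 experiment, 3 samples were treated with an amino-terminal fragment of human apolipoprotein E4, residues 1 to 151, at 25 μg/ml for 5 h, and 3 untreated samples were their controls. In the nApoE3 experiment, 2 samples were treated with the same residues of apolipoprotein E3 at the same dose and time, and 3 other untreated samples were their controls. Both fragments were made as recombinant proteins with a His tag, and no sample received an unrelated protein. The labels name a PBS vehicle and the study's methods name conditioned media, and the sources do not say which was used. Each fragment was tested in 1 experiment only, so effects of the fragment and of the experiment cannot be told apart.

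Signals from Toll-like receptors and the TNF receptor build ubiquitin chains that gather the kinases of the NF-κB pathway. A20 is an enzyme that edits these chains, ABIN proteins such as ABIN1 bind them and bring A20 along, and CYLD cuts them. NF-κB is known to switch on the A20 gene, which gives a negative feedback loop. A later brake acts on the mRNA of cytokines. Regnase-1 cuts stem-loops in their 3′ untranslated regions (3′ UTRs), and tristetraprolin and its paralogs bind AU-rich elements there and bring in the CCR4-NOT complex, which removes the poly(A) tail.

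The regions in front of 4 of the genes are printed because these genes rose with both fragments and differ in the sites they hold. Each runs from 250 bases before to 50 bases after a transcription start site, 5′ to 3′ on the strand of the gene, from RefSeq on GRCm38.p6. Capitals mark matches on either strand to the κB consensus, the site that NF-κB binds.
Tnfaip3 promoter, chr10:19015361-19015660, minus strand: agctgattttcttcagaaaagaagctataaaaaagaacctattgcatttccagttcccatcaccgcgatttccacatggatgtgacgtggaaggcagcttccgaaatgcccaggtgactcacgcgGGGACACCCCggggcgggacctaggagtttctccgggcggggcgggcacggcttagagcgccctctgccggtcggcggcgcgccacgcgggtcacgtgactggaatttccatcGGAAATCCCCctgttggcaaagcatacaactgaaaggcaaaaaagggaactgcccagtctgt
Tnip1 promoter, chr11:54962891-54963190, minus strand: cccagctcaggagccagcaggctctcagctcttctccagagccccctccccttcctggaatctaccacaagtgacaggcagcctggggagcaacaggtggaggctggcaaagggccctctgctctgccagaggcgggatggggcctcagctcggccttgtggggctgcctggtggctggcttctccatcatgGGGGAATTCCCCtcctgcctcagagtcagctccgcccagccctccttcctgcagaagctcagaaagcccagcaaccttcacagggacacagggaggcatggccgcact
Tnip3 promoter, chr6:65590148-65590447, plus strand: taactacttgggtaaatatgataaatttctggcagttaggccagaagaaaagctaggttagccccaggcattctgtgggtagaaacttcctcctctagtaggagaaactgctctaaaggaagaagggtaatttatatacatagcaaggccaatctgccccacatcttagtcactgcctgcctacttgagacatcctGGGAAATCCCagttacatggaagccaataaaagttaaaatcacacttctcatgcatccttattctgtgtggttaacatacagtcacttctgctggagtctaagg
Zc3h12a promoter, chr4:125127832-125128131, minus strand: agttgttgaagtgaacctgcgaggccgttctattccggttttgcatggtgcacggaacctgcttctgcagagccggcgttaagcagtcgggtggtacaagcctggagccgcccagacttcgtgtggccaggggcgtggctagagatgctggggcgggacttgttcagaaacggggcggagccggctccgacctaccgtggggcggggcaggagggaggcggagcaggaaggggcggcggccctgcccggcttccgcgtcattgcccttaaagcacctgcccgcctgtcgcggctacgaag

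RefSeq promoters were matched for 8 of the 9 genes, with 2 start sites for Tnfaip3. Zfp36l2 had no entry. The κB consensus was found in 4 genes, Tnfaip3, Tnip1, Tnip3 and Cyld, of the 8 matched. It is held by 9.55% of 27025 genes in at least 1 promoter of the same length, and by 8.46% of 32851 promoters. Tnfaip3 had 2 matches at its upstream start site, at bases -125 to -116 and -12 to -3 from the start, and none at the other start site. Tnip1 had 3 overlapping matches within bases -58 to -47, Tnip3 had 1 at -54 to -45, and Cyld had 1 at -155 to -146. The AP-1 site TGANTCA, searched on both strands and with no overlap with the κB matches, was found in Tnfaip3 and Zfp36l1 and in 7.81% of all promoters. Neither the interferon-stimulated response element GAAANNGAAA, present in 3.44% of promoters, nor the cAMP response element TGACGTCA, present in 1.79%, was found in these windows. A match is a description of the letters and not a site shown to be used.

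The AU-rich heptamer TATTTAT, a core of the elements that tristetraprolin binds, was searched in the longest annotated 3′ UTR of each gene in GENCODE M21 (GRCm38), on the sense strand only. Zfp36, Zfp36l1 and Zfp36l2 held 3 copies each, Tnfaip3 and Cyld 2 each, Tnip3 1, and Tnip1, Tnip2 and Zc3h12a 0. Of 20990 protein-coding genes, 27.6% held at least 1 copy and 4.14% at least 3. Among genes with a 3′ UTR of 0.8 to 1.2 times the length, at least 3 copies were held by 1.298% for Zfp36 (774 bases), 4.28% for Zfp36l1 (1835 bases) and 4.27% for Zfp36l2 (1822 bases). At least 2 copies were held by 13.2% of genes at the length of Tnfaip3 (1821 bases) and by 35.8% at that of Cyld (4932 bases), and at least 1 copy by 52.1% at that of Tnip3 (2932 bases). A copy from each of these 3 genes is shown with its heptamer in capitals, since this element is known from the cytokine mRNAs that tristetraprolin acts on.
Zfp36, chr7:28376951-28376979, minus strand: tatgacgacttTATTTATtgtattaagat
Zfp36l1, chr12:80108422-80108450, minus strand: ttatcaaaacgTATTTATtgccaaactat
Zfp36l2, chr17:84184914-84184942, minus strand: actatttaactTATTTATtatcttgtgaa

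The nApoE4 experiment held 39732710 to 44162511 counts on genes per sample and the nApoE3 experiment 55809688 to 69768666. At that depth 3 counts correspond to 0.0430 to 0.0755 CPM (counts scaled to the library size, with TMM factors in the levels given here), a floor that covers counting error only. The lowest count of any of the 9 genes in a sample was 109, for Tnip3 in a control of the nApoE3 experiment. The 14 markers of macrophages and microglia summed to 2480 to 3714 CPM, with Csf1r and Cd68 among the highest. Not all of them were abundant. Aif1 did not exceed 10 counts in a sample, Cx3cr1 did not exceed 0.739 CPM and Tmem119 did not exceed 9.15 CPM. The homeostatic microglia marker P2ry12 was at 0 in all 11 samples, and Sall1 did not exceed 2 counts. The summed level of 5 astrocyte markers was 1.36 to 1.92 CPM in the controls and 5.88 to 7.89 CPM in the treated samples. The rise was mostly through Slc1a2 and in smaller part through Slc1a3. Slc1a3 went from at most 0.235 to at least 0.680 CPM with nApoE4, and from at most 0.692 to at least 1.35 CPM with nApoE3. Gfap did not exceed 4 counts and Aqp4 did not exceed 1. Markers of oligodendrocytes summed to 9.33 to 25.5 CPM, with Mog at 0 in all samples, and those of neurons to 0.781 to 1.54 CPM. Fibroblast markers summed to at most 0.390 CPM and those of T and B cells to at most 0.564 CPM. The part of the astrocyte markers in the results was not tested. Only 2 genes with names that start with mt- are listed, so the mitochondrial content of the libraries is not known. These 2 genes held 0.0389 to 0.0522% of the counts in the nApoE4 experiment and 0.336 to 0.361% in the nApoE3 experiment. Trem2 had 2578 counts in control replicate 1 of the nApoE4 experiment and 62 to 112 in its other controls, and control replicate 2 of that experiment differed most in counts from its group. Without each of these controls, 6 of the 9 genes were still higher and 3 lower with nApoE4. In bulk RNA, fewer cells of a type and less RNA per cell cannot be told apart, and the labels do not say that replicates were separate cultures, so p-values measure the spread between these samples.

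Both fragments changed all 9 genes, in the same direction gene by gene. Tnfaip3, Tnip1, Tnip3, Cyld, Zc3h12a and Zfp36 were higher and Tnip2, Zfp36l1 and Zfp36l2 lower, by edgeR's quasi-likelihood test with an adjusted p-value under 0.05. All 9 passed the filter on low counts. With nApoE4, 28.6% of the 14240 genes tested were called higher and 28.6% lower (57.2% in either direction), and with nApoE3, 33.1% of 14817 were higher and 34.6% lower (67.7%). With a fold change above 2 as well, 4 of the 9 were higher and 1 lower with nApoE4, against 10.2% and 7.46% of all genes. With nApoE3, 5 were higher and 1 lower, against 9.6% and 6.57% of all genes. The median log2 fold change of the 9 genes was 0.98 with nApoE4 and 1.48 with nApoE3, and over all genes tested it was 0.0013 and -0.0026. In each experiment the treated and the control samples did not overlap for any of the 9 genes, which also held for 63.6% of genes with nApoE4 and 77.6% with nApoE3. A scaling to total counts in place of TMM moved the higher and lower calls over all genes to 3316 and 4993 from 4067 and 4078 for nApoE4, and to 3595 and 6783 from 4907 and 5127 for nApoE3, with the median of all genes at -0.09 and -0.13. The 9 genes kept their direction and call under that scaling.

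**Figure D1:**
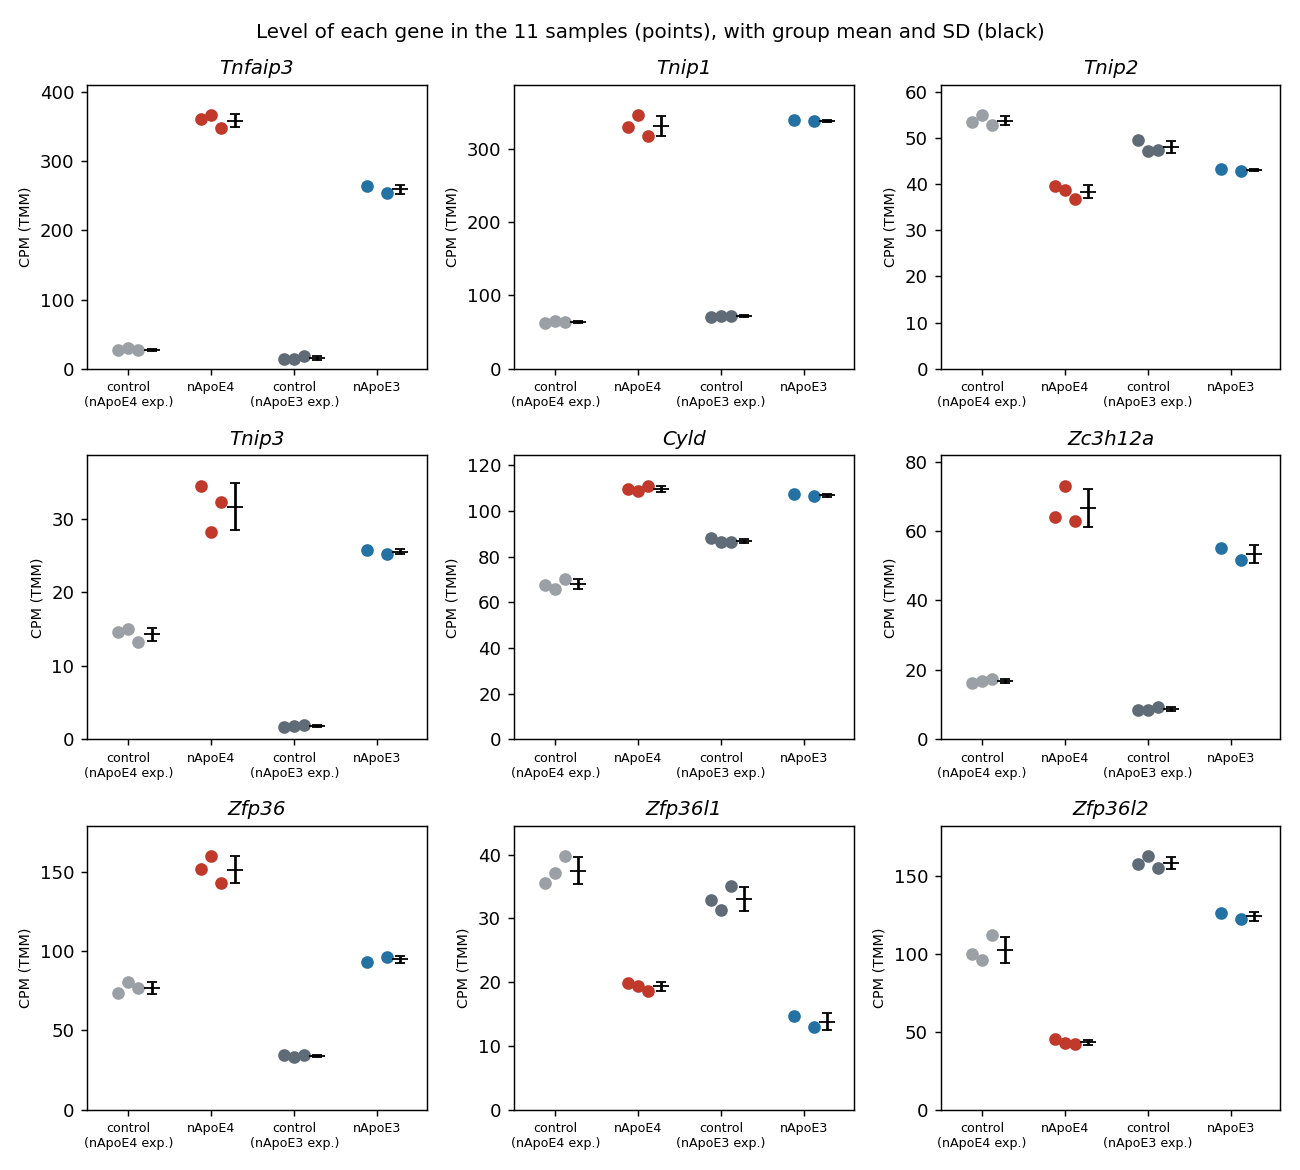
Level of each of the 9 genes in CPM (vertical axis, from 0, a scale of its own for each gene) in the 4 groups. Points are samples, and black marks give the group mean and SD. Tnfaip3 lies at 13.9 to 29.5 CPM in the 6 control samples and at 255 to 366.5 CPM in the 5 treated samples, while Zfp36l1 is lower in every treated sample.

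Tnfaip3, the gene of A20 (chromosome 10, 19000910 to 19015410, minus strand, GRCm38.p6), had the largest rise of the 9 genes with each fragment. Its level in the 3 controls of the nApoE4 experiment was 26.6, 29.5 and 26.4 CPM, and in the 3 treated samples 361, 366.5 and 349 CPM. In the nApoE3 experiment it was 13.9, 14.0 and 18.6 CPM in the controls and 264 and 255 CPM in the treated samples. Every treated sample was far above every control, and the controls of the nApoE3 experiment were below those of the nApoE4 experiment. The log2 fold change was 3.71 (SE 0.0705, adjusted p = 4.23e-10, edgeR) with nApoE4, rank 200 from the top of 14240 genes, and 4.07 (SE 0.0732, adjusted p = 2.23e-13) with nApoE3, rank 162 of 14817. These are 13.1-fold and 16.8-fold higher levels.

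Tnip1, the gene of ABIN1 (chromosome 11, 54910787 to 54962956, minus strand), which anchors A20 to ubiquitin chains, rose by nearly the same factor with both fragments. It was at 62.3, 64.6 and 63.7 CPM in the controls and 330.4, 346 and 317 CPM in the samples treated with nApoE4. It was at 70.0, 71.7 and 72.6 CPM in the controls and 339 and 337 CPM in the samples treated with nApoE3. The control and the treated levels of the 2 experiments lay close to each other. This was a log2 fold change of 2.39 (SE 0.0618, adjusted p = 2.03e-09, edgeR), or 5.23-fold, with nApoE4 and 2.24 (SE 0.0247, adjusted p = 4.53e-15), or 4.72-fold, with nApoE3.

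Tnip3, the gene of ABIN3 (chromosome 6, 65590398 to 65634040, plus strand), known as an inducible partner of A20, was the gene whose response differed most between the fragments. It was at 14.6, 14.97 and 13.3 CPM in the controls and 34.5, 28.2 and 32.3 CPM with nApoE4. In the nApoE3 experiment the controls were at 1.63, 1.84 and 1.93 CPM and the treated samples at 25.8 and 25.3 CPM. The treated levels of the 2 experiments were near each other, and the controls were far apart. Tnip3 thus changed by 1.15 on the log2 scale (SE 0.0876, adjusted p = 2.87e-06, edgeR) with nApoE4 and 3.83 (SE 0.0684, adjusted p = 2.11e-13) with nApoE3, or 2.22-fold and 14.2-fold.

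Tnip2, the gene of ABIN2 (chromosome 5, 34496096 to 34513979, minus strand), which also holds and stabilizes the kinase Tpl2, was the ABIN gene that fell. Its level was 53.5, 54.8 and 52.8 CPM in the controls and 39.5, 38.8 and 36.7 CPM with nApoE4. It was 49.5, 47.1 and 47.3 CPM in the controls and 43.1 and 42.9 CPM with nApoE3. Each treated sample was below each control of its experiment, by a small margin with nApoE3. Its log2 fold change was -0.48 (SE 0.0559, adjusted p = 5.74e-05, edgeR) with nApoE4 and -0.16 (SE 0.0344, adjusted p = 0.00108) with nApoE3.

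Cyld, the gene of a deubiquitinase that cuts K63-linked and linear chains (chromosome 8, 88696878 to 88751946, plus strand), rose by less than the fold of 2. It was at 67.8, 66.0 and 70.2 CPM in the controls and 109.6, 109 and 111 CPM with nApoE4. It was at 88.0, 86.6 and 86.3 CPM in the controls and 107 and 106 CPM with nApoE3. The treated levels were alike in the 2 experiments, and the controls of the nApoE3 experiment were higher than those of the nApoE4 experiment. Its log2 fold change was 0.70 (SE 0.0543, adjusted p = 3.47e-06, edgeR) with nApoE4 and 0.29 (SE 0.0259, adjusted p = 6.88e-07) with nApoE3.

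Zc3h12a, the gene of the endoribonuclease Regnase-1 (chromosome 4, 125118414 to 125127881, minus strand), rose most among the mRNA decay genes. Its level was 16.2, 16.9 and 17.2 CPM in the controls and 64.0, 73.0 and 62.9 CPM with nApoE4. In the nApoE3 experiment it was 8.57, 8.30 and 9.33 CPM in the controls and 55.1 and 51.6 CPM in the treated samples. Again the controls of the nApoE3 experiment were the lower ones, and the treated levels were closer to each other. The log2 fold change was 1.99 (SE 0.0739, adjusted p = 1.95e-08, edgeR), or 3.99-fold, with nApoE4 and 2.61 (SE 0.0510, adjusted p = 4.57e-13), or 6.09-fold, with nApoE3.

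Zfp36, the gene of tristetraprolin (chromosome 7, 28376784 to 28379228, minus strand), rose while both of its paralogs fell. It was at 73.3, 80.6 and 76.8 CPM in the controls and 151, 159.8 and 143 CPM with nApoE4, and at 34.4, 33.0 and 34.5 CPM in the controls and 93.4 and 96.3 CPM with nApoE3. The log2 fold change was 0.98 (SE 0.0650, adjusted p = 1.06e-06, edgeR) with nApoE4 and 1.48 (SE 0.0324, adjusted p = 1.28e-12) with nApoE3. That is 1.98-fold and 2.78-fold, so the nApoE4 value lay just under the fold of 2.

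Zfp36l1 (chromosome 12, 80107760 to 80113013, minus strand), a paralog with the same type of zinc fingers, was at 35.5, 37.2 and 39.7 CPM in the controls and 19.9, 19.5 and 18.6 CPM with nApoE4. It was at 32.9, 31.3 and 35.0 CPM in the controls and 14.7 and 12.9 CPM with nApoE3. The controls of the nApoE3 experiment were slightly below those of the nApoE4 experiment, and every treated sample was far below both. This gave a log2 fold change of -0.95 (SE 0.0661, adjusted p = 1.51e-06, edgeR) with nApoE4 and -1.26 (SE 0.0627, adjusted p = 2.64e-09) with nApoE3, or 1.93-fold and 2.40-fold lower.

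Zfp36l2 (chromosome 17, 84183924 to 84187947, minus strand), the other paralog, was at 99.6, 96.1 and 112 CPM in the controls and 45.1, 43.0 and 41.9 CPM with nApoE4. It was at 157, 162 and 155 CPM in the controls and 126 and 122 CPM with nApoE3. Here the nApoE3 experiment had the higher controls and the smaller fall. The log2 fold change was -1.24 (SE 0.0715, adjusted p = 4.07e-07, edgeR), or 2.36-fold lower, with nApoE4 and -0.36 (SE 0.0280, adjusted p = 1.89e-07), or 1.28-fold lower, with nApoE3. GENCODE M21 has a non-coding gene on the opposite strand over each of the 3 paralogs. The strand setting of the counting is not given in the sources used here, so reads of these genes and of the Zfp36 paralogs cannot be told apart. The same holds for pseudogenes on the opposite strand over Tnip1 (Gm12230) and Cyld (Gm17995 and Gm17910), which the count files do not list.

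**Figure D2:**
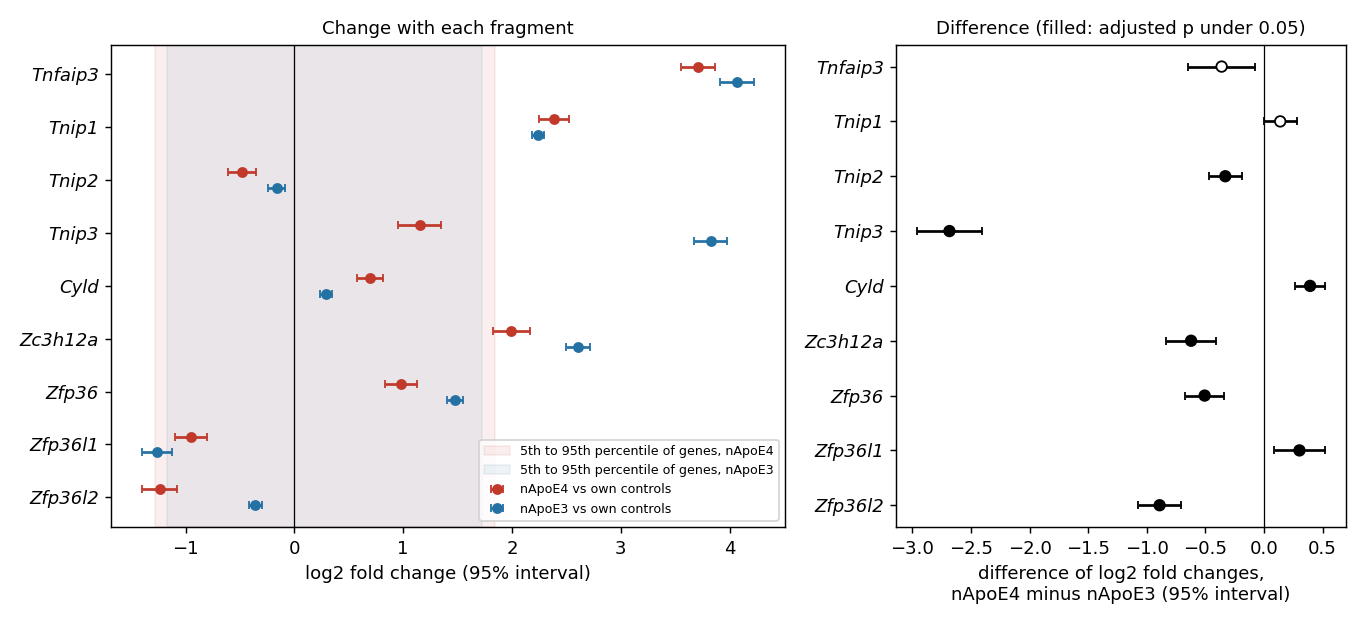
Left, log2 fold change of each gene against its own controls (horizontal axis), with 95% intervals, for nApoE4 in red and nApoE3 in blue, over shaded bands from the 5th to the 95th percentile of all genes tested (-1.28 to 1.84 and -1.17 to 1.73). Right, the difference of the log2 fold changes, nApoE4 minus nApoE3, with 95% intervals and filled points for an adjusted p-value under 0.05. Tnip3 stands apart at -2.68, and Tnfaip3 and Tnip1 have open points.

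The size of the response was compared between the fragments as an interaction over the 11 samples, coded as the nApoE4 change minus the nApoE3 change. It was called for 7 of the 9 genes, 2 with a higher and 5 with a lower nApoE4 value, where 28.3% of 15287 genes were called, 14.4% higher and 13.9% lower. The 2 higher genes were Cyld, at 0.39 (SE 0.0590, adjusted p = 0.00029, edgeR), and Zfp36l1, at 0.30 (SE 0.0987, adjusted p = 0.0362). For Zfp36l1 the value means a smaller fall with nApoE4, and the call was lost with an adjusted p of 0.0508 to 0.210 when control replicate 1 of the nApoE4 experiment, nApoE4 replicate 1 or 2, control replicate 1 or 3 of the nApoE3 experiment, or nApoE3 replicate 2 was left out. The 5 lower genes were Tnip3 at -2.68 (SE 0.128, adjusted p = 2.43e-08), Zfp36l2 at -0.89 (adjusted p = 6.31e-06), Zc3h12a at -0.62 (adjusted p = 0.000456), Zfp36 at -0.51 (adjusted p = 0.00033) and Tnip2 at -0.33 (adjusted p = 0.00223). Tnip3 ranked 15214 of 15287 from the top. With a fold change above 2 the call remained for Tnip3 alone, against 5.93% of all genes.

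The 2 genes without a call were Tnfaip3 and Tnip1. For Tnfaip3 the difference was -0.36 with a 95% interval of -0.65 to -0.08 (adjusted p = 0.0564, edgeR). It passed the threshold without control replicate 3 of the nApoE4 experiment (adjusted p = 0.0445) and without control replicate 3 of the nApoE3 experiment (-0.51, adjusted p = 0.00109), in which Tnfaip3 was at 18.6 CPM against 13.9 and 14.0 CPM. DESeq2 also called it, with an adjusted p of 0.0378. For Tnip1 the difference was 0.14 with a 95% interval of -0.0025 to 0.28 (adjusted p = 0.136).

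These differences share the controls with the comparisons above, and the untreated cells of the 2 experiments were not alike. All 9 genes differed between the control groups, 3 higher and 6 lower in the nApoE3 experiment, where 69.3% of 14249 genes did, 34.4% higher and 34.9% lower. Tnip3 was 8.04-fold lower in the controls of the nApoE3 experiment (log2 -3.01, SE 0.0967, adjusted p = 3.01e-07, edgeR), Zfp36 was 2.29-fold lower (-1.20), Zc3h12a 1.94-fold lower (-0.96) and Tnfaip3 1.80-fold lower (-0.85). Tnip2 (-0.18) and Zfp36l1 (-0.20) were slightly lower. Zfp36l2 (0.61), Cyld (0.34) and Tnip1 (0.15) were higher. The call of Zfp36l1 was lost without control replicate 3 of the nApoE4 experiment or control replicate 1 or 2 of the nApoE3 experiment, with an adjusted p of 0.0546 to 0.102. Side by side, mean Tnip3 went from 14.3 ± 0.877 CPM (SD, n = 3) to 31.7 ± 3.19 (n = 3) with nApoE4 and from 1.80 ± 0.156 (n = 3) to 25.5 ± 0.369 (n = 2) with nApoE3. Mean Zfp36l2 went from 103 ± 8.27 to 43.3 ± 1.65 CPM with nApoE4 and from 158 ± 3.74 to 124 ± 2.65 CPM with nApoE3. For each gene that rose, the experiment with the lower controls had the larger fold change by value. That was the nApoE3 experiment for Tnip3, Tnfaip3, Zc3h12a and Zfp36, and the nApoE4 experiment for Cyld and Tnip1. The difference was not called for Tnfaip3 and Tnip1. For Zfp36l2 and Zfp36l1 the fall was smaller where the controls were higher, and for Tnip2 it was smaller where they were lower.

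To compare levels between genes, CPM was divided by the length of the merged exons in kb. These merge all annotated transcripts of a gene and can be longer than the mRNA that is present. For Zfp36 they are 3.47 kb, longer than its RefSeq locus given above. A shorter length would raise Zfp36 per kb and could move it above Zfp36l2 or Tnfaip3 in the orders below. By this measure, Zfp36l2 was the highest of the 9 genes in untreated cells. It was at 29.04 ± 2.34 CPM per kb (SD, n = 3) in the nApoE4 experiment and 44.8 ± 1.06 (n = 3) in the nApoE3 experiment. In the nApoE4 experiment it was followed by Zfp36, Tnip2, Tnip1, Zfp36l1, Zc3h12a, Cyld, Tnfaip3 and Tnip3, the last at 1.31 ± 0.0803 CPM per kb. With nApoE4 the order was Tnip1 (93.6 ± 3.996), Tnfaip3 (49.7 ± 1.27), Zfp36 (43.6 ± 2.44), Zc3h12a, Tnip2, Zfp36l2, Cyld, Zfp36l1 and Tnip3 (2.90 ± 0.292). Tnfaip3 thus moved from place 8 to place 2 with these lengths. With nApoE3, Tnip1 led at 95.6 ± 0.322 CPM per kb (n = 2), and Tnfaip3 (35.9 ± 0.889) and Zfp36l2 (35.1 ± 0.752) came next with overlapping samples. With these lengths, no other neighbours in the order overlapped within any of the 4 groups.

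With the exon lengths used here, the summed level of the 3 Zfp36 paralogs was much the same in the 4 groups, and its makeup was not. This sum and that of the ABIN genes were looked at after the values of the single genes were seen, and they were not tested. It was 63.7 ± 3.04 CPM per kb (SD, n = 3) in the controls and 62.4 ± 2.82 (n = 3) with nApoE4, and 65.7 ± 0.275 (n = 3) in the controls and 67.1 ± 0.588 (n = 2) with nApoE3. Zfp36 made up 34.8 ± 1.99% of it in the controls and 69.9 ± 1.05% with nApoE4, and Zfp36l2 45.5 ± 2.02% and 19.7 ± 0.777%. With nApoE3 the share of Zfp36 went from 14.9 ± 0.417% to 40.8 ± 1.24% and that of Zfp36l2 from 68.3 ± 1.37% to 52.3 ± 0.662%. With these lengths Zfp36l2 was still the larger part. Scaled to total counts, the sums were 67.1 and 61.9 CPM per kb in the nApoE4 experiment and 66.4 and 61.6 in the nApoE3 experiment. They were lower in the treated samples of each. The sums and shares depend on the 3.47 kb used for Zfp36, which is longer than its RefSeq locus. A shorter length would raise the share of Zfp36 and could make it larger than that of Zfp36l2 with nApoE3 too. It would also shift the sums upwards, most in the treated samples, so the likeness of the sums rests on this length.

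The ABIN genes went in sum from 39.3 ± 0.680 to 111 ± 4.21 CPM per kb with nApoE4 and from 38.2 ± 0.212 to 114 ± 0.420 with nApoE3. The share of Tnip1 in that sum was 45.7 ± 0.507% in the controls and 84.5 ± 0.625% with nApoE4, and 52.8 ± 1.10% and 83.9 ± 0.0260% in the nApoE3 experiment. Tnip2, the larger part in the controls of the nApoE4 experiment, was at 12.9 ± 0.325% with nApoE4. Tnip3 never made up more than 3.45% of this sum in a sample. That share depends on its merged exons, 10.916 kb, against 3.539 kb for Tnip1 and 2.685 kb for Tnip2. Without division by length, Tnip3 was at 14.3 of 132 CPM in the controls of the nApoE4 experiment. It was at 25.5 of 407 CPM with nApoE3. By both measures it was the smallest part in each group.

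**Figure D3:**
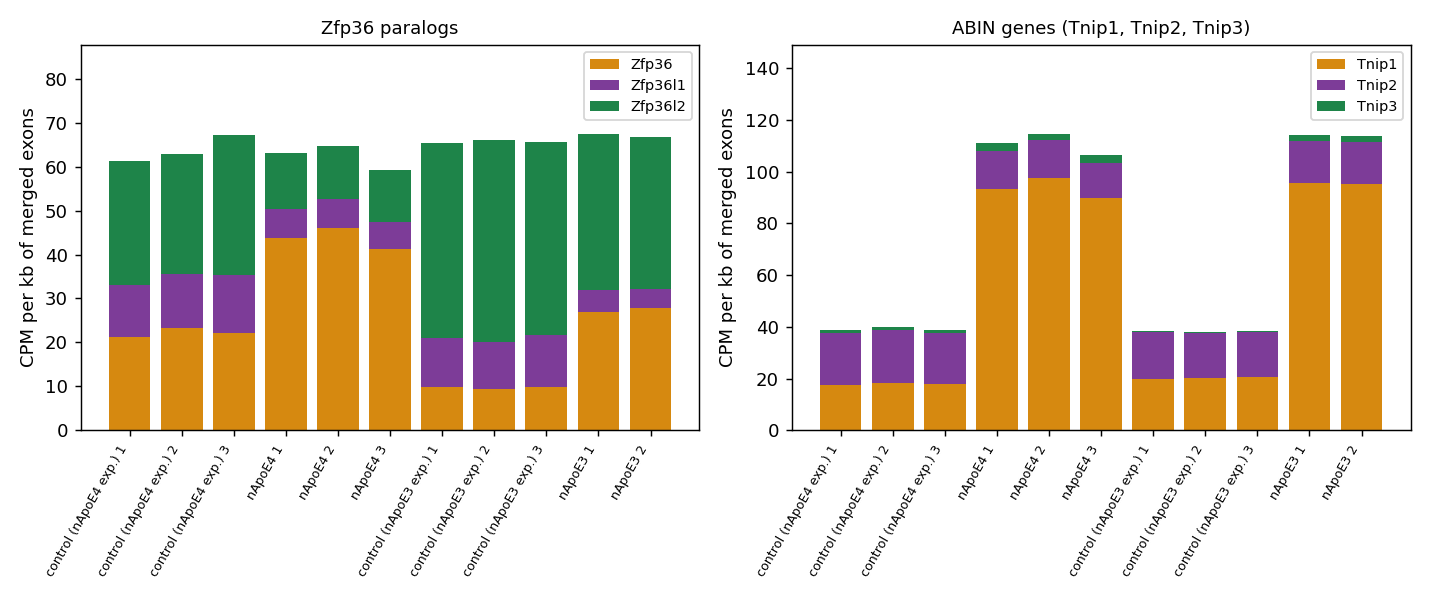
Stacked levels in CPM per kb of merged exons (vertical axis, from 0) of the Zfp36 paralogs (left) and the ABIN genes (right) in each of the 11 samples. The Zfp36 bars stay between 59.2 and 67.5 CPM per kb while Zfp36 (orange) is a larger part and Zfp36l2 (green) a smaller part in the treated samples, and the ABIN bars lie at 38.0 to 40.1 CPM per kb in the controls and 106 to 115 in the treated samples, mostly Tnip1 (orange).

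The proteins that work with A20, or that have related enzyme activity, were examined as a list of 12 genes. With nApoE4, 10 were higher and 0 lower (median log2 fold change 0.34), and with nApoE3, 10 were higher and 2 lower (median 0.19). Over all genes tested, 28.6% were higher and 28.6% lower with nApoE4 and 33.1% and 34.6% with nApoE3, with medians of 0.0013 and -0.0026. Spata2, a CYLD adaptor (-0.22), and Usp21 (-0.19) were the 2 lower genes. Usp18, which removes ISG15 rather than ubiquitin, had the largest change, at 2.50 with nApoE4 and 4.15 with nApoE3, a difference of -1.65 (adjusted p = 2.7e-06, edgeR). Its mean level went from 5.10 ± 0.557 to 28.7 ± 0.643 CPM and from 5.41 ± 0.855 to 95.6 ± 5.37 CPM. Usp25 (1.16 and 1.19) and Rnf11, a subunit of the A20 complex (0.80 and 0.76), rose by like amounts with the 2 fragments.

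Of the ubiquitin ligases, adaptors and kinases that A20, the ABIN proteins and CYLD act on, 21 genes were tested. With nApoE4, 13 were higher and 2 lower, and with nApoE3, 15 were higher and 3 lower, with medians of 0.50 and 0.31. In either direction 71.4% and 85.7% were called, against 57.2% and 67.7% of all genes, whose medians were 0.0013 and -0.0026. Ripk1, a kinase that A20 edits (-0.41 and -0.43), and Tab1, a subunit of the TAK1 kinase complex (-0.36 and -0.26), were lower with both fragments. Rbck1, a subunit of the linear ubiquitin ligase, was lower with nApoE3 (-0.13) and not called with nApoE4 (-0.10). Traf1, an adaptor of the TNF receptor, had the largest rise, from 1.08 ± 0.111 to 203 ± 2.11 CPM with nApoE4 (log2 fold change 7.55) and from 1.16 ± 0.114 to 124 ± 1.17 CPM with nApoE3 (6.74). The kinase gene Ripk2 rose by 2.73 and 1.87 on the log2 scale and the ligase gene Birc3 by 2.63 and 2.29. The rise of each of these 3 genes was larger with nApoE4, by 0.80 for Traf1, 0.85 for Ripk2 and 0.33 for Birc3, and each difference was called.

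Among 15 other regulators of mRNA decay, 6 of 14 tested were higher and 4 lower with nApoE4, and 8 of 15 were higher and 3 lower with nApoE3. In either direction these are 71.4% and 73.3%, against 57.2% and 67.7% of all genes. Zc3h12c, a relative of Regnase-1, rose from 34.7 ± 2.90 to 349 ± 16.3 CPM with nApoE4 (log2 fold change 3.34) and from 34.9 ± 0.873 to 284 ± 1.63 CPM with nApoE3 (3.02). Btg2, which recruits the deadenylase, rose by 1.58 and 2.75, and N4bp1, an RNase that restrains cytokines, by 1.42 and 1.09. Tob1, a relative of Btg2 (-1.16 and -1.63), Tob2 (-0.61 and -0.08) and Khsrp, which binds AU-rich elements (-0.24 and -0.22), were lower with both fragments. Zc3h12d, another relative of Regnase-1, was lower with nApoE4 (-0.89, SE 0.240) and not called with nApoE3 (-0.27, SE 0.281). Of 21 deadenylase and decapping genes tested, 6 were higher and 4 lower with nApoE4, and 6 higher and 6 lower with nApoE3. In either direction 47.6% and 57.1% were called, against 57.2% and 67.7% of all genes. Dcp2, the decapping enzyme, rose by 0.61 and 0.88, and Cnot6l, a catalytic subunit of CCR4-NOT, fell by 0.76 and 0.35. Tnks1bp1, a CCR4-NOT-associated protein, went in opposite directions, with a log2 fold change of 1.11 with nApoE4 and -0.61 with nApoE3 (difference 1.71, adjusted p = 9.56e-08, edgeR).

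Most of the mRNAs known as targets of tristetraprolin or Regnase-1 that could be tested were higher with both fragments. Of 16 genes, 14 passed the filter on low counts with nApoE4 and 13 with nApoE3, and some of them, such as Il12b, passed through the treated samples alone. The filter applied to the controls alone kept 10 genes, a choice made after seeing the data. Of these 10, 8 were higher and 1 lower with nApoE4 (Ier3, -0.69), and 9 were higher and 0 lower with nApoE3 (Ier3, 3.52). Over all genes tested, 28.6% were higher with nApoE4 and 33.1% with nApoE3. Il1b went from 1.03 ± 0.0699 to 223 ± 17.3 CPM with nApoE4 and from 1.99 ± 0.537 to 360 ± 21.7 CPM with nApoE3. The chemokine gene Cxcl2 went from 0.535 ± 0.197 to 268 ± 5.04 CPM and from 0.872 ± 0.0799 to 257 ± 4.10 CPM. Il12b, with 3 to 5 counts in each control, reached 2035 to 2305 counts with nApoE4 and 887 to 1150 with nApoE3. Il10 was tested with both fragments and not called, at 0.07 (SE 0.364) and -0.02 (SE 0.413).

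**Figure D4:**
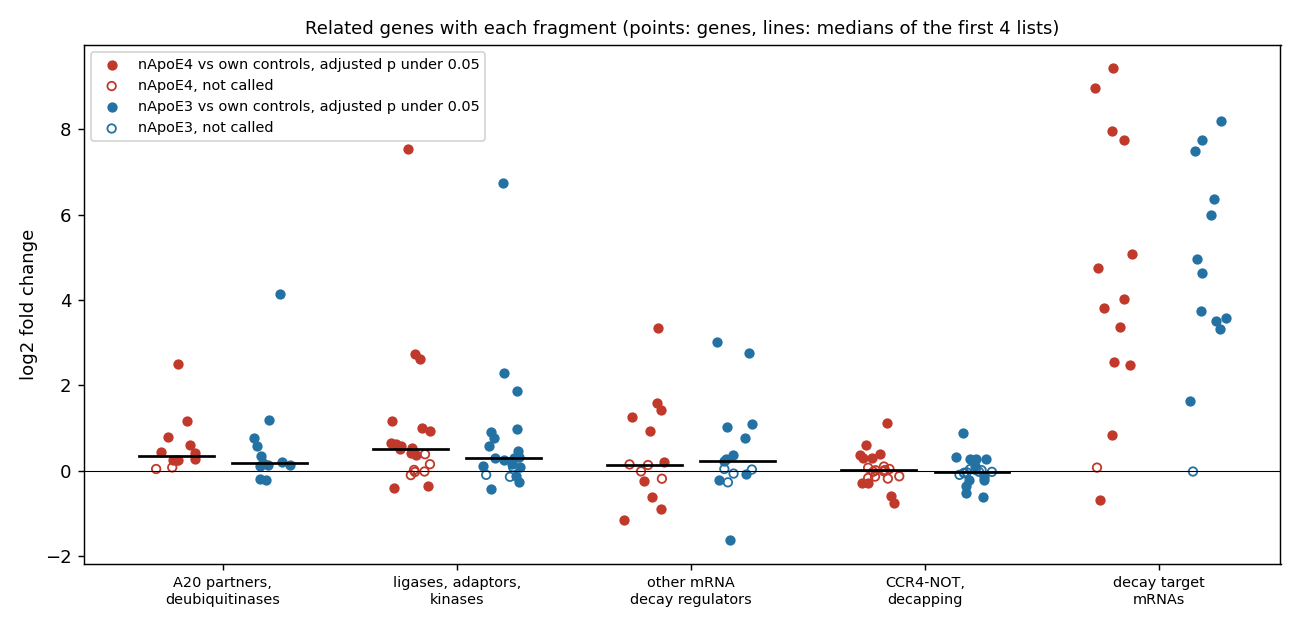
Log2 fold change (vertical axis) of each tested gene of the 5 related lists, for nApoE4 in red and nApoE3 in blue, filled for an adjusted p-value under 0.05, with black lines at the medians of the first 4 lists. No median is drawn for the decay targets, since some passed the filter through the treated samples alone. The deadenylase and decapping genes lie on both sides of 0, from -0.76 to 1.11 with nApoE4.

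For each of the 9 genes, the genes with the most similar pattern over the 11 samples were found among the other genes of the 15287 tested. The measure was the root mean square difference of log2 CPM, after subtracting the mean of the controls of the same experiment, and it is a description of levels that share libraries. Nlrp3, Tarm1 and Nod2 lay nearest to Tnfaip3, at 0.127, 0.149 and 0.164 log2 units, where Tnfaip3 itself was 2.60 from its controls by the same measure. Rhbdf2, Gsap and Nfkb1, the last encoding an NF-κB subunit, lay nearest to Tnip1, at 0.0465 to 0.0824. Trafd1, Stap1 and Tor3a lay nearest to Zc3h12a, at 0.111 to 0.114, and Lgals3bp, Fam53c and Klf6 to Zfp36, at 0.0689 to 0.0779. Slfn4 and Adamts4, among the genes nearest to Tnip3, were farther away, at 0.321 and 0.356, where Tnip3 itself was 1.73 from its controls. Distances can be small for a gene that changed little, and Tnip2 was 0.265 from its controls. The genes that fell had neighbours of their own, Mepce, Mob3a and Ddx20 for Tnip2 (0.0281 to 0.0428), Slc13a3, Fdxr and Mfng for Zfp36l1 (0.0694 to 0.0760) and Sema6b, Zic2 and Gnptab for Zfp36l2 (0.0526 to 0.0767). Tbc1d9b and Fut8 were among the genes nearest to Cyld, at 0.0433 and 0.0445.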

How the data were processed

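RNA of 11 BV2 samples was sequenced. As per the labels and the study's methods, the authors trimmed single-end reads with Trim Galore 0.5.0, checked them with FastQC 0.11.8, aligned them to GRCm38.p6 with HISAT2 2.1.0 and counted them on genes with HTSeq 0.11.0. The deposited values are raw counts per gene, with no normalization. The annotation release and the strand setting are not given in the sources used here. Of all tallied reads, unaligned ones included, 76.0 to 77.7% were on genes, and the tallies of uncounted reads stayed out of the library sizes.

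Groups came from the sample labels. Tests used edgeR 4.0.16 in R 4.3.3 (filterByExpr, TMM, quasi-likelihood F test, Benjamini-Hochberg adjustment over all genes tested), at an adjusted p-value under 0.05, with or without a fold change above 2. Treated samples were set against the controls of their experiment, the difference of response was an interaction over 11 samples, and the control groups were set against each other. Standard errors are approximate (absolute log2 fold change over the root of the F statistic). The steps were run on simulated data in which few genes changed and all shared 1 spread. Far more genes were called in the real data, so that run does not test the steps in this setting. The 9 genes and the related lists were chosen with earlier results of these data known. Named genes are the 9, up to 3 genes per list with the largest called nApoE4 change and a mean of at least 1 CPM, and the 3 most similar genes per gene. Spata2, Usp21, Ripk1, Tab1, Rbck1, Tob1, Tob2, Khsrp, Zc3h12d, Ier3 and Il10 were named after their values were seen. Exon lengths and 3′ UTRs came from GENCODE M21, and positions and promoters from RefSeq. Alternatives were DESeq2 1.42.0, its size factors, other filters on low counts, a replicate block, all samples in 1 fit, leaving out each replicate, and, added after seeing the data, scaling to total counts. Some of the most similar genes and 1 sequence are not reported here.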

Additional observations from a re-analysis of the deposited data

Results flagged for a closer look

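The response differed between the 2 fragments, by the test of the difference itself, for 7 of the 9 genes, against 28.3% of the 15287 genes tested, and fragment and experiment cannot be told apart. As the nApoE4 log2 fold change minus that of nApoE3, the values were -2.68 for Tnip3, -0.89 for Zfp36l2, -0.62 for Zc3h12a, -0.51 for Zfp36, -0.33 for Tnip2, 0.39 for Cyld and 0.30 for Zfp36l1. Of these, Zfp36l1 was the gene whose call was lost when single replicates were left out, for 6 of the 11 samples.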

How the results depend on the processing

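The calls of all 9 genes with each fragment kept their direction and their side of the threshold under 13 alternatives for nApoE4 and 12 for nApoE3, and no value of the 9 genes in any comparison reversed. The difference between the fragments was less stable. The number of genes called with a positive difference, nApoE4 minus nApoE3, was 2 in the main analysis and 1 with the replicate block. It was 1 to 2 with single replicates of the groups of 3 left out. This came through Zfp36l1, whose positive value is a smaller fall with nApoE4. With the replicate block, Zfp36l1 had an adjusted p of 0.160 and Tnfaip3 an adjusted p of 0.0105, and the calls over all genes numbered 2307 instead of 4331. Deviations from the group means were correlated between treated and control samples to look for pairing by replicate number. In the nApoE4 experiment same-numbered samples had correlations of -0.172 to -0.0386, and no sample correlated best with its own number. In the nApoE3 experiment the deviations of the 2 treated samples mirror each other, so the check cannot show pairing there. Whether samples were paired by design is not known. With all genes of at least 1 count, the Tnfaip3 difference had an adjusted p of 0.0305, and over its 17 alternatives the adjusted p was 0.00109 to 0.172. With scaling to total counts, added after seeing the data, Tnip1 had an adjusted p of 0.0410. The cause was not tested. The group of 2 nApoE3 samples left 1 sample when a replicate was left out, and that sample was assumed to vary like the controls. The 9 genes had at least 109 counts in each sample, and depth limits the values of low related genes such as Il12b, with 3 to 5 counts in each control.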
